A study of Mus musculus with 6 samples.

Results

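The 5 genes that encode the NF-κB subunits, *Nfkb1*, *Nfkb2*, *Rel*, *Rela* and *Relb*, were chosen by symbol from the 23420 genes of the expression tables, and their transcripts were compared between CpG-stimulated and unstimulated B cells. All 5 were found, and all 5 were among the 11233 genes that passed the filter on low values. B cells were purified with beads from the spleens of 3 WT BALB/c mice aged 7 to 11 weeks, with no engineered allele named in the labels. Cultures of 10 M cells were given CpG ODN 1826, a synthetic DNA that activates TLR9, at 10 μg/mL for 4 hours, or were left without it. No culture time is stated for the unstimulated samples. Each condition has 3 replicates, 1 and 2 labelled female and 3 labelled male. Bead-purified splenic B cells are a mixture of follicular, marginal zone and other B cells.

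NF-κB proteins bind DNA as dimers through a shared region, the Rel homology region, and are held in the cytoplasm of resting cells by IκB proteins. TLR9 acts through MyD88 and the IκB kinases, which mark IκB for degradation and let the dimers enter the nucleus. RelA (p65), c-Rel (from *Rel*) and RelB also carry a transactivation domain. *Nfkb1* and *Nfkb2* encode the precursors p105 and p100, whose ankyrin repeats act like an IκB, and which are processed to p50 and p52, subunits that bind DNA without a transactivation domain of their own. In mature B cells c-Rel and p50 are abundant subunits, and c-Rel is required for proliferation after mitogens. Localization and processing of these proteins are not measured by RNA-seq.

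The part of the Rel homology region that reads the DNA is shown first, because it is what the 5 genes have in common whatever their transcripts did. Each sequence is the coding strand of GENCODE M21 on GRCm38, 5′ to 3′. Capitals mark 8 codons of the loop that touches the DNA backbone and bases, and 12 bases are given on either side.

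Nfkb1: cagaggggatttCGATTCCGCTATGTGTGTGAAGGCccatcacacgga
Nfkb2: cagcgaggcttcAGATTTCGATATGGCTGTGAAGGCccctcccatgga
Rel: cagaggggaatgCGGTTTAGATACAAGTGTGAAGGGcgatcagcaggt
Rela: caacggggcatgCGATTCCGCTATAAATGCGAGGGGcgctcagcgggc
Relb: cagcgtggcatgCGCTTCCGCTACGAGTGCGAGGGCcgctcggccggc

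These stretches lie in coding exons at chr3:135655554-135659030 (minus strand, across the junction of exons 5 and 6 of *Nfkb1*, intron included in the span), chr19:46306524-46306815 (plus strand, across exons 3 and 4 of *Nfkb2*), chr11:23761067-23761114 (minus strand, exon 2 of *Rel*), chr19:5638601-5638648 (plus strand, exon 3 of *Rela*) and chr7:19619568-19619615 (minus strand, exon 4 of *Relb*). Of the 24 bases in capitals, 12 were the same in all 5 genes. Over all 48 bases *Rela* and *Relb* shared 39, *Nfkb1* and *Nfkb2* shared 36, and *Nfkb2* and *Rel* shared 28, the fewest of the 10 pairs. Likeness did not strictly follow the kind of subunit: within the capitals *Nfkb1* and *Relb* shared 19 bases, as many as *Nfkb1* and *Nfkb2* or *Rela* and *Relb*, and over all 48 *Nfkb1* and *Rel* shared 33, as *Rel* and *Relb* did.

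After CpG the transcripts parted by the kind of subunit. The transcripts of both precursor genes rose, *Nfkb1* 3.28-fold and *Nfkb2* 2.06-fold. Transcripts of the 3 genes with a transactivation domain fell, *Rel* to 43.1%, *Relb* to 72.7% and *Rela*, with a weak call, to 88.3% of the unstimulated level. The changes of *Rel*, *Nfkb1* and *Nfkb2* were larger than the median size of change of all genes tested (0.635 on the log2 scale), and those of *Rela* and *Relb* were smaller. Expression is given as log2 CPM (reads of a gene per M reads counted) after quantile normalization, the deposited unit. The log2FC is the difference of group means, and FDR is the Benjamini-Hochberg adjusted p of limma over all genes tested.

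**Figure D1:**
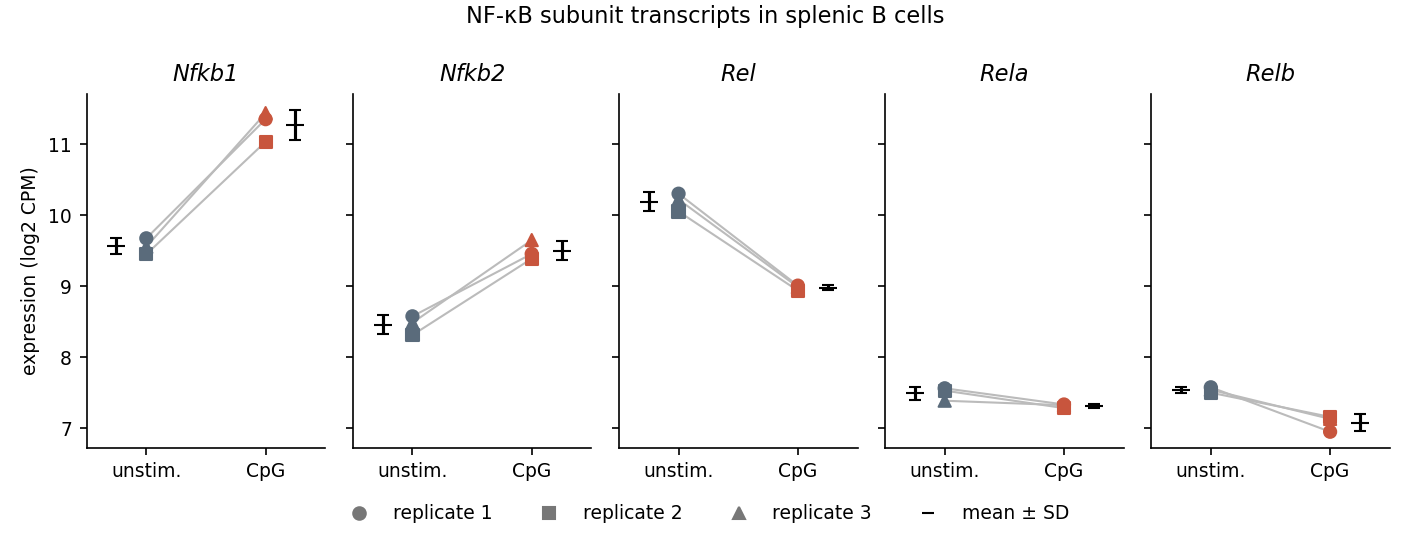
Expression (log2 CPM, vertical axis) of each NF-κB subunit gene in the 3 unstimulated (grey-blue) and 3 CpG-stimulated (red) samples; lines join samples of the same replicate number and bars give the mean ± SD. *Nfkb1* and *Nfkb2* lie higher in every stimulated sample, *Rel*, *Rela* and *Relb* lower, with a gap of 1.36 for *Nfkb1* and of 0.053 for *Rela* between the nearest samples of the groups.

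*Nfkb1*, the gene of p105 and p50, lies at chr3:135584655-135691547 (GRCm38, minus strand) and its coding transcript has 25 exons. Its expression was 9.68, 9.45 and 9.56 log2 CPM in unstimulated replicates 1 to 3 and 11.35, 11.04 and 11.44 in stimulated ones. The lowest stimulated sample was 1.36 above the highest unstimulated one, and stimulated replicate 2 was lower than the other two. The group means were 9.56 ± 0.113 and 11.27 ± 0.212 (SD, n = 3 each), and the log2FC of 1.71 (SE 0.107) passed the test (FDR = 3.05e-07, limma). Within replicate numbers the differences were 1.68, 1.59 and 1.88. Of the genes tested, 98.4% had a lower mean than *Nfkb1* in unstimulated and 99.8% in stimulated cells, on the log2 CPM scale, which is not corrected for length. The means correspond to 757 and 2495 CPM.

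*Nfkb2*, the gene of p100 and p52, lies at chr19:46304320-46312385 (plus strand) and its coding transcript has 22 exons. Its values were 8.58, 8.31 and 8.49 log2 CPM without CpG and 9.46, 9.39 and 9.65 with it. Again no sample of one group reached the other, and the gap was 0.812. Means were 8.46 ± 0.134 and 9.498 ± 0.136 (SD, n = 3 each), with a log2FC of 1.04 (SE 0.0886, FDR = 2.55e-06, limma). This change sat just inside the log2FC of 1 that the study uses for its TLR9 signature, and was 0.964 to 1.10 with each sample left out in turn. Without stimulated replicate 3 or without unstimulated replicate 2 it was under 1, so that 1 and not 2 of the 5 genes passed that threshold. The annotated span of *Nfkb2* shares 299 bases, introns not set apart, with that of *Psd*, a gene of the opposite strand. Expression of *Psd* rose from 4.66 to 6.45 log2 CPM (log2FC 1.79, FDR = 2.70e-07, limma). The library kit keeps the strand, but whether counting used it is not given in the sources used here, and the part of *Psd* reads in *Nfkb2* was not tested.

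*Rel*, the gene of c-Rel, lies at chr11:23736847-23770970 (minus strand), has a coding transcript of 10 exons, and moved the other way. Its expression was 10.30, 10.05 and 10.22 log2 CPM in unstimulated replicates and 9.01, 8.94 and 8.99 after CpG. All stimulated values lay within a narrow band more than a log2 unit under the lowest unstimulated one. The mean fell from 10.19 ± 0.128 to 8.98 ± 0.0361 (SD, n = 3 each), a log2FC of -1.21 (SE 0.0739, FDR = 2.68e-07, limma), and the log2FC was between -1.28 and -1.16 with each sample left out. *Rel* was also lower by more than a log2FC of 1 when that size itself was tested with limma's treat (FDR = 0.0494), as 968 genes were in all, and *Nfkb1* was higher by more than it.

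*Relb* encodes RelB, a partner of p52 in the noncanonical pathway and in part held by p100, and lies at chr7:19606217-19629438 (minus strand, 12 exons). It measured 7.58, 7.502 and 7.54 log2 CPM in unstimulated replicates and 6.95, 7.16 and 7.13 after CpG. Stimulated replicate 1 was the lowest and the groups stayed 0.341 apart. The means were 7.54 ± 0.038 and 7.08 ± 0.114 (SD, n = 3 each), with a log2FC of -0.46 (SE 0.0693, FDR = 0.000164, limma).

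*Rela* encodes p65, the usual partner of p50, and lies at chr19:5637483-5648130 (plus strand, 11 exons). Its unstimulated values were 7.56, 7.53 and 7.39 log2 CPM and its stimulated values 7.34, 7.29 and 7.33. Unstimulated replicate 3 was lower than the other two and only 0.053 above the highest stimulated sample. The mean fell from 7.49 ± 0.093 to 7.32 ± 0.027 (SD, n = 3 each), a log2FC of -0.18 (SE 0.064, FDR = 0.0274, limma). Within replicate numbers it was -0.23, -0.25 and -0.06. This call is weak. It was made in 7 of 12 alternative settings, and it was lost without stimulated replicate 3 (log2FC -0.18, FDR = 0.0652), without unstimulated replicate 1 (-0.14, FDR = 0.1003) and without unstimulated replicate 2 (-0.16, FDR = 0.0953).

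The counts over the 5 genes do not stand out from those over all genes. With an FDR under 0.05, 2 of the 5 were raised and 3 lowered, where 37.6% of all genes tested were raised and 36.7% lowered; in 5 of 12 alternatives 2 members were lowered, as *Rela* lost its call. With a log2FC over 1 in addition, 2 were raised and 1 was lowered, against 15.8% and 15.3% of all genes. Every stimulated sample was above every unstimulated one for 2 members and below for 3, against 39.1% and 38.6% of all genes. What differs from gene to gene is the position in the distribution of log2FC: *Nfkb1* was at the 95.0th percentile of all genes tested, *Nfkb2* at 85.0, *Rela* at 41.8, *Relb* at 30.6 and *Rel* at the 12th.

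**Figure D2:**
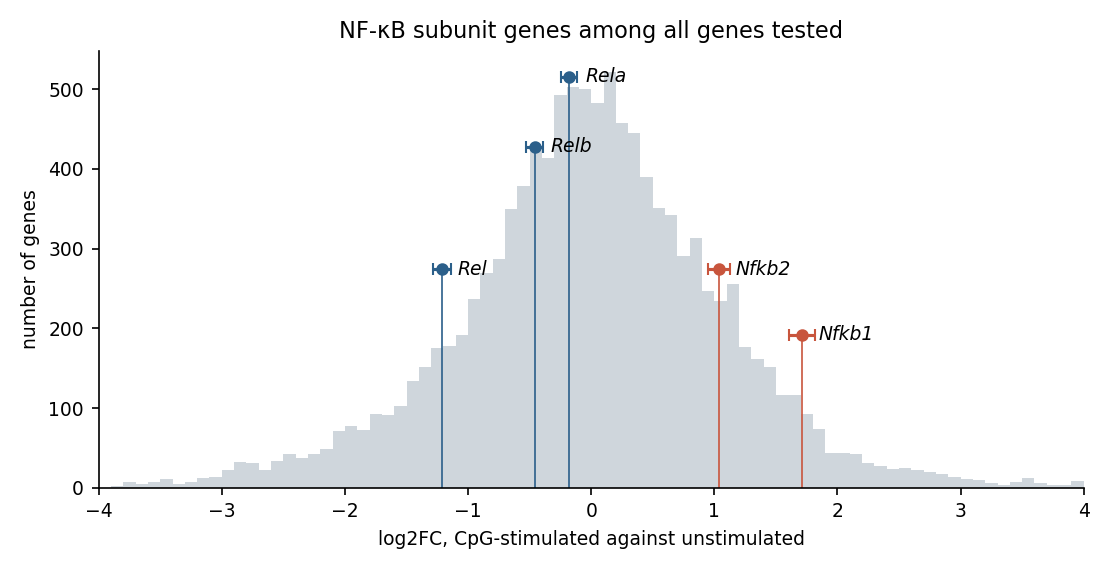
Number of genes (vertical axis) by log2FC (horizontal axis, stimulated against unstimulated, in steps of 0.1) for all 11233 genes tested, with the 5 NF-κB subunit genes marked at their log2FC ± SE; the height of a marker has no meaning, and 51 genes beyond a log2FC of 4 in size are not drawn. *Nfkb1* (1.71) and *Nfkb2* (1.04) lie right of the centre and *Rel* (-1.21), *Relb* (-0.46) and *Rela* (-0.18) left of it.

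The values of a sample sum to nearly the same total, as CPM do by definition. The authors' quantile normalization also maps the samples to a common distribution of values. A change in the RNA content of a cell is therefore not seen, and a fall is a fall relative to the other genes of the sample. In such bulk samples fewer cells of a type and less RNA per cell cannot be told apart. All 7 B cell markers were expressed, with a summed level of 11.8 to 12.05 log2 CPM in unstimulated and 11.2 to 11.4 in stimulated samples, so they moved with the groups too. The same sums were 6.17 to 6.54 and 6.97 to 7.15 for 7 T cell markers, where *Cd3e*, *Cd4* and *Cd8a* were near the level of no reads, and 2.88 to 3.85 and 3.32 to 3.96 for 6 myeloid markers. Of the T cell markers 2, *Cd5* and *Lck*, and of the myeloid markers 4 exceeded the value of 10 reads, of 4 NK cell markers 0 (sums of -3.07 to -2.64 and -0.40 to 0.44) and of 4 pDC markers 2 (7.89 to 7.94 and 6.66 to 6.69), *Tcf4* and *Ccr9*. All 4 erythroid markers exceeded the value of 10 reads, with summed levels of 8.66 to 11.9 and 8.58 to 12.3, and so did all 4 plasma cell markers, with 9.69 to 10.2 and 8.87 to 9.23. The part of these cells in the subunit values was not tested.

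Differences between members within a sample do not depend on a scale factor of that sample. Quantile normalization is not a single factor, so it can still enter them. The largest shift was between *Nfkb1* and *Rel*, the genes of p105/p50 and c-Rel. The sign of a difference depends on the lengths of the 2 genes, for which these values are not corrected, and its change between the groups does not. *Nfkb1* minus *Rel* was -0.63, -0.60 and -0.67 in unstimulated samples and 2.34, 2.10 and 2.45 in stimulated ones, a shift of 2.93 log2 units or 7.61-fold. *Nfkb2* minus *Rel* was close to the same in all unstimulated samples, at -1.73, -1.74 and -1.74, and became 0.45, 0.45 and 0.66, a shift of 2.25 or 4.77-fold. The groups did not overlap in any of the 10 pairs of members. An exact two-sided permutation test, which did not use the replicate numbers, gave p = 0.1 for each pair, also after adjustment over the 10. For 3 against 3 samples 0.1 is the smallest p that this test allows.

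Members of the same kind also parted, by less. *Nfkb1* gained on *Nfkb2* by 0.67 (1.6-fold), from 1.10 ± 0.0337 to 1.78 ± 0.125 (SD, n = 3 each). *Rel* lost 1.03 against *Rela* (2.05-fold) and 0.75 against *Relb* (1.69-fold). *Rel* minus *Rela* had nearly 1 value after CpG, 1.67, 1.65 and 1.66, where it had been 2.74, 2.52 and 2.83. *Rela* minus *Relb* moved least, by 0.28 (1.21-fold), from -0.05 ± 0.0957 to 0.23 ± 0.135. Against *Rela* and *Relb*, *Nfkb1* gained 1.89 and 2.17, and *Nfkb2* gained 1.22 and 1.499.

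**Figure D3:**
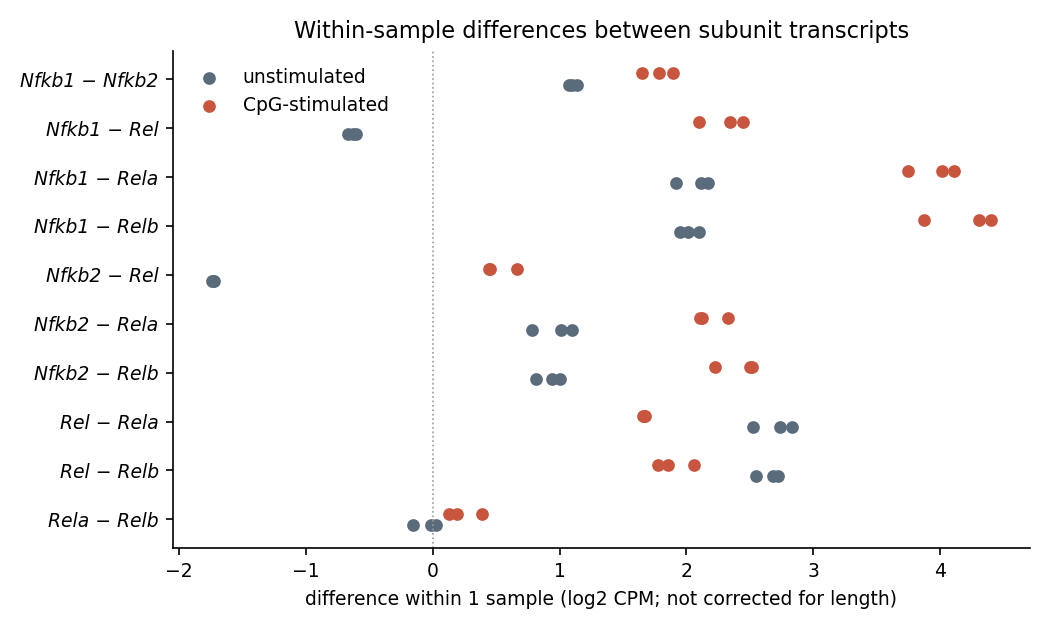
Difference of 2 subunit genes within each sample (horizontal axis, log2 CPM, not corrected for length) for the 10 pairs (vertical axis), with 1 point for each of the 3 unstimulated (grey-blue) and 3 CpG-stimulated (red) samples. *Nfkb1* − *Rel* shifts furthest, by 2.93, and the groups do not overlap in any pair.

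To compare levels between genes, values were divided by length. With all annotated exons of a gene as its length (12061 bases for *Nfkb1*, 7466 for *Rel*, 4584 for *Nfkb2*, 3885 for *Relb* and 3072 for *Rela*), *Rel* was the highest in unstimulated cells at 7.29 ± 0.128 log2 CPM per kb (SD, n = 3, as for all these levels). *Nfkb2* followed at 6.26 ± 0.134, *Nfkb1* at 5.97 ± 0.113, *Rela* at 5.88 ± 0.093 and *Relb* at 5.58 ± 0.038, and of neighbours in this order the samples of *Nfkb1* and *Rela* overlapped. After CpG the order was *Nfkb1* at 7.68 ± 0.212, *Nfkb2* at 7.30 ± 0.136, *Rel* at 6.08 ± 0.0361, *Rela* at 5.70 ± 0.027 and *Relb* at 5.12 ± 0.114, where *Nfkb1* and *Nfkb2* overlapped. *Rel* thus went from first to the third place.

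The resting order depends on the length. The longest protein-coding transcript of *Nfkb1* has 4117 bases, and with such lengths *Nfkb1*, at 7.52 ± 0.113 log2 CPM per kb, was above *Rel* at 7.29 ± 0.128 in unstimulated cells, though the lowest sample of the first (7.41) and the highest of the second (7.403) nearly met. *Nfkb2* was then at 6.52 ± 0.134, *Relb* at 6.40 ± 0.038 and *Rela* at 6.05 ± 0.093, and *Nfkb2* and *Relb* overlapped. After CpG *Nfkb1* was first under either length, at 9.23 ± 0.212 here, followed by *Nfkb2* at 7.56 ± 0.136 and *Rel* at 6.08 ± 0.0361. *Relb* at 5.94 ± 0.114 and *Rela* at 5.87 ± 0.027 overlapped. Which transcripts the B cells used is not given by values per gene.

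As shares of the summed level of the 5 genes per kb of all exons, *Rel* made up 39.3%, 37.8% and 39.7% in unstimulated samples and 13.2%, 13.9% and 12.1% after CpG. *Nfkb1* went from 15.7%, 15.4% and 15.5% to 41.4%, 36.7% and 40.9%. With lengths of the longest protein-coding transcript *Nfkb1* held 31.5% ± 0.35 without and 61.5% ± 2.68 with CpG, and *Rel* 26.9% ± 0.716 and 6.92% ± 0.599 (SD, n = 3 each). Under either length the share of *Nfkb1* rose in every sample and that of *Rel* fell. *Nfkb1* and *Nfkb2* together held 34.6% ± 0.662 without and 70.1% ± 2.31 with CpG (SD, n = 3 each), and with lengths of the longest protein-coding transcript 47.2% ± 0.753 and 80.8% ± 2.02. *Nfkb2* rose from 19.1% ± 0.542 to 30.5% ± 1.04, while *Rela* went from 14.6% ± 1.26 to 10.0% ± 0.71 and *Relb* from 11.9% ± 0.491 to 6.77% ± 0.893. The summed level of the 5 itself was 8.66 ± 0.098 log2 CPM per kb without and 9.02 ± 0.124 with CpG, and 9.19 ± 0.097 and 9.94 ± 0.153 with lengths of the longest protein-coding transcript, so the size of its rise depends on the length.

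**Figure D4:**
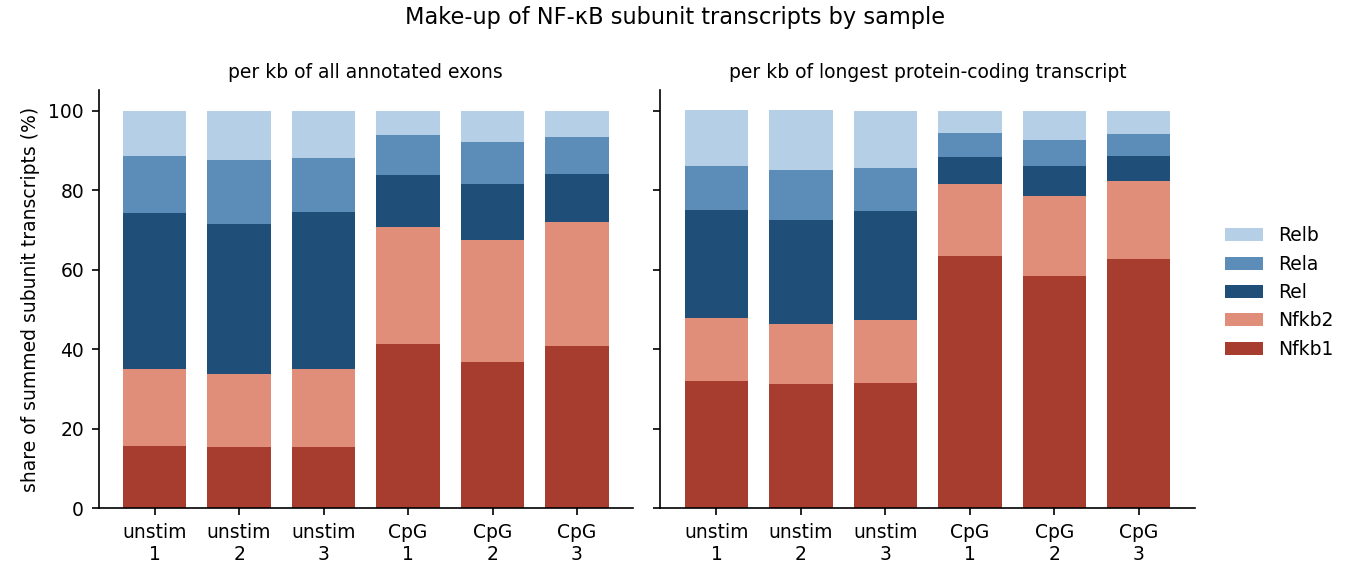
Share of each NF-κB subunit gene in the summed level of the 5 (vertical axis, percent) in each sample (horizontal axis), with levels per kb of all annotated exons (left) or of the longest protein-coding transcript (right). *Nfkb1* and *Nfkb2* (red shades) hold 34.6% on average in unstimulated and 70.1% in CpG-stimulated samples on the left, and 47.2% and 80.8% on the right.

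Sequence features that the choice of members did not use were read from the reference, as descriptions. The pentamer ATTTA in a 3′ UTR is the core of AU-rich elements, which many short-lived immune transcripts carry. It occurred 4 times in the 3′ UTR of *Nfkb1* (700 bases), once in that of *Nfkb2* (133 bases), 12 times in the long 3′ UTR of *Rel* (5418 bases) and 0 times in those of *Rela* (714 bases) and *Relb* (336 bases). Per kb this gives 5.71 for *Nfkb1*, 7.52 for *Nfkb2* and 2.21 for *Rel*, where the median of 9542 genes with a 3′ UTR of at least 100 bases was 1.34 and 69.3% of them had at least 1. *Nfkb1*, *Nfkb2* and *Rel* thus carry it, as most genes do, and *Rela* and *Relb* do not. The densities of *Nfkb1*, *Nfkb2* and *Rel* were above those of 95.3%, 98.0% and 67.9% of these genes. That of *Nfkb2* rests on 1 copy in 133 bases. Each 3′ UTR is that of the coding transcript whose exon number is given above. With so few members, whether its presence goes with the direction or size of change was not tested. mRNA half-life was not measured.

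For 3 of the 5 genes RefSeq promoter windows were at hand (GRCm38.p6, 250 bases before and 50 after a transcription start): 1 for *Rel*, 1 for *Rela* and 3 for *Nfkb2*. They were searched on both strands for GGGNNTTNCC, a form of the κB site to which these subunits bind. The 250 bases before the start are shown for 1 window of each gene, because some of the subunits' own genes are classical κB targets. Capitals mark the letters of matches.

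Rel, chr11:23770970-23771219, minus strand: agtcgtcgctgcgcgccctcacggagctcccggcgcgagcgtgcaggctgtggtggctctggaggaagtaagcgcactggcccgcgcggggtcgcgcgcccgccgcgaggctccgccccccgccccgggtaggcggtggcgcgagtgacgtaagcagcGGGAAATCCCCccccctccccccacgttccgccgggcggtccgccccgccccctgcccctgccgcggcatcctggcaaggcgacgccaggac
Nfkb2, chr19:46304487-46304736, plus strand: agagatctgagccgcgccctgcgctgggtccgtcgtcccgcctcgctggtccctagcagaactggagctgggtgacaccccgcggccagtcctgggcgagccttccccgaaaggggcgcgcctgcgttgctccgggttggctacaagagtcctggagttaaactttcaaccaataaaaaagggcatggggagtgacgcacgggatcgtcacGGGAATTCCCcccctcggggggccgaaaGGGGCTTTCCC
Rela, chr19:5637291-5637540, plus strand: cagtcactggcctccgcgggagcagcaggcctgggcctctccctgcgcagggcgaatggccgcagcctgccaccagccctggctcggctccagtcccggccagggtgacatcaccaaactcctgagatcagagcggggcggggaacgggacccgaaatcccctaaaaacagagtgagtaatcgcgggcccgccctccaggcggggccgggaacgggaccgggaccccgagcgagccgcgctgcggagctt

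The *Rel* window held 2 overlapping matches between positions -92 and -82 from the start. The *Nfkb2* window held the palindrome GGGAATTCCC, a match on both strands from -39 to -30, and 2 overlapping matches from -11 to -1. The other 2 *Nfkb2* windows overlap each other and share 1 match, GGGACTTTCC at chr19:46305705-46305714. The *Rela* window held 0. Of 32851 windows of all genes 4.79% held at least 1 match, and of 27025 genes 5.48% did in at least 1 window. *Nfkb2* rose and *Rel* fell with a match in their windows, so among these genes a match did not go with 1 direction. Binding was not measured here.

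Genes whose values ran most like each member over the 6 samples were found by the root mean square difference of gene-centred log2 values, a measure of likeness and not a test. For *Nfkb1* these were *Mettl22* (0.0382), *Rars2* (0.0491) and *Sesn2* (0.0575). They were *Atp5g1* (0.0474), *Slc25a26* (0.0589) and *Them6* (0.0623) for *Nfkb2*, and *Tmem106b* (0.0352), *Cds2* (0.0474) and *Wdtc1* (0.0490) for *Rel*. *Rela* ran with *Tab3* (0.0233), *Acbd3* (0.0248) and *Tuba4a* (0.0300), and *Relb* with *Herpud1* (0.0344), *Cd37* (0.0372) and *Rpl12* (0.0400). Among the members themselves the difference was smallest between *Rela* and *Relb* (0.169), then between *Nfkb1* and *Nfkb2* (0.346) and *Rel* and *Relb* (0.390), and largest between *Nfkb1* and *Rel* (1.47). No member was among the genes nearest to another, a place taken by genes at differences of 0.0233 to 0.0623.

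The genes around the subunits were counted in lists, beside the 37.6% of all genes raised and 36.7% lowered, and a median log2FC of 0.0033 over all genes tested. Of 14 inhibitors and brakes, most of which hold the subunits back or end the signal, 9 were raised and 4 lowered, with a median log2FC of 0.58. *Nfkbiz* (3.52), the gene of the nuclear IκBζ, which also acts as a coactivator with p50 at genes such as *Il6*, *Nfkbia* (1.83), the gene of IκBα, and *Nfkbib* (1.08), the gene of IκBβ, rose most. *Cyld* (-1.56), a deubiquitinase, *Pdlim2* (-1.46), a ligase for nuclear p65, and *N4bp1* (-0.32) fell most, and *Tnip1* (0.07) did not pass. With p105 and p100 counted as IκB-like proteins, *Nfkb1* and *Nfkb2* moved in the direction of *Nfkbia* and *Nfkbib*.

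Of 15 kinases and adaptors upstream of the subunits, 5 were raised and 7 lowered, with a median of -0.15. *Map3k8* (0.83) rose most, though it did not pass with no filter on low values (FDR = 0.0528, limma); its kinase, Tpl2, is bound by p105. *Rbck1* (0.40) and *Map3k7* (0.32), the gene of TAK1, also rose. *Malt1*, the gene of a paracaspase, fell by 1.63 and *Bcl10*, the gene of its adaptor, by 0.79 on the log2 scale. *Chuk* (0.06), *Rnf31* (0.06) and *Tab3* (-0.15) did not pass. *Map3k14*, the gene of NIK, which sets off the processing of p100, had a log2FC of -0.57 (FDR = 3.53e-05, limma) where *Nfkb2* itself rose; it was picked after its value was seen.

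Of 11 genes for the processing and degradation of p105, p100 and IκB, 5 were raised and 3 lowered, with a median of 0.20. *Skp1a* (0.86) and *Rbx1* (0.50), parts of the SCF ligase, and *Fbxw7* (0.40, FDR = 0.0505 with no filter, limma) rose, while *Btrc* (-1.13), the gene of βTrCP, which recognises IκB, p105 and p100, and *Rnf123* (-0.33) fell. The list of 17 nuclear cofactors and modifiers of Rel proteins had 7 raised and 8 lowered, with a median of -0.13. The importin genes *Kpna2* (1.71) and *Kpna3* (1.29) and *Hdac2* (1.22) rose, and *Rps6ka5* (-1.52), a kinase for p65, and the coactivators *Ep300* (-1.17) and *Crebbp* (-1.12) fell. All 4 tested genes of the NFAT family, which also have a Rel homology region, were lowered: *Nfatc2* (-1.62), *Nfatc3* (-0.95), *Nfat5* (-0.77) and *Nfatc1* (-0.43). *Nfatc4* was under the filter. Together with *Rel*, *Rela* and *Relb*, 7 of the 9 genes tested with this region were thus lowered, 6 where *Rela* loses its call. *Nfkb1* and *Nfkb2* were raised. This joint count was not planned, its genes were chosen with earlier results known, and 36.7% of all genes tested were lowered.

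Most textbook targets of NF-κB rose. Of 48 listed, 47 were tested, of which 40 were raised and 4 lowered, with a median log2FC of 2.01, against 2 of 5 for the subunits. The filter on low values needed 3 samples, so a target could pass it through the stimulated samples alone, as *Il12b*, *Bcl2a1a* and *Ccl22* did. With all 6 samples required, these and *Il6* were not tested, and 32 targets were raised and 4 lowered. *Il12b* (6.99), *Il6* (5.30), *Ebi3* (4.64), *Bcl2a1a* (4.45), *Ccl22* (4.26) and *Bcl2l1* (3.91) changed most. Among them are cytokine genes and the survival genes *Bcl2l1* and *Bcl2a1a*. In unstimulated samples *Il12b* and *Ccl22* had means near the value of 3 reads, taken as the limit of detection, and *Bcl2a1a* and *Il6* had means under 0 log2 CPM, so the sizes of these changes are uncertain. On log2(CPM + 1) they were 4.45 for *Il12b*, 3.73 for *Il6*, 2.63 for *Bcl2a1a* and 1.85 for *Ccl22*, which changes the order, against 4.30 for *Ebi3* and 3.89 for *Bcl2l1*. *Bcl2a1a* also has close copies that can share its reads. *Ltb* (-1.81), the gene of lymphotoxin β, *Cd86* (-0.80), *Ccne1* (-0.63) and *Junb* (-0.23) were lowered; the calls of *Ccne1* and *Junb* were weak, lost in 5 and 7 of 12 alternatives. *Traf2* (-0.01), *Cd83* (0.11) and *Irf1* (-0.18) did not pass. The list shares 5 genes with the inhibitors. Without them 35 of 42 were raised and 4 lowered, with a median of 2.06.

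**Figure D5:**
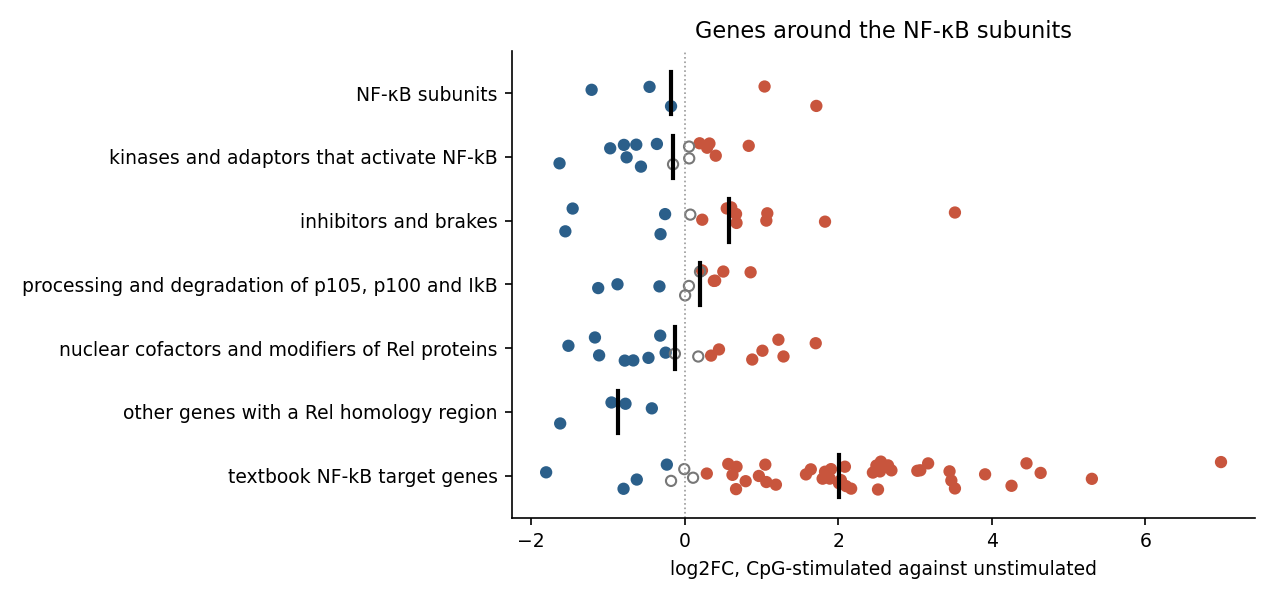
log2FC (horizontal axis, stimulated against unstimulated) of the NF-κB subunit genes and of each gene tested in the 6 lists (vertical axis), with 1 point a gene: red raised, blue lowered, open not passing an FDR of 0.05; black bars give the median and the vertical scatter within a list has no meaning. Target genes lie mostly to the right (median 2.01), the NFAT genes to the left (median -0.86), and the 5 subunit genes on both sides of 0.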

How the data were processed

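RNA-seq of 6 samples was used. Per the labels and the study's methods, the authors trimmed reads with Trim Galore 0.6.5, checked them with FastQC 0.11.7, aligned them to mm10 with STAR 2.6.1a, counted them per gene with featureCounts (Subread 2.0.1), and then ran quantile normalization and voom. What they deposited is log2 CPM and not counts. The value of a gene without reads (-5.15) gives a common library of 17.8 M reads, so the depth of each sample is unknown; 10 reads correspond to -0.76 and 3 reads to -2.34, for counting error only.

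The groups were tested against each other in limma 3.58.1 under R 4.3.3 (lmFit, eBayes with a trend), over the 11233 genes above the value of 10 reads in at least 3 samples, with Benjamini-Hochberg adjustment over all of them. A test for counts, written down for the case of counts, was not used. The fit was tested on simulated data. Members, lists and the rule for named genes (the 3 most alike to each member, and the 3, or for targets 6, called genes furthest in each direction of a list) were chosen with earlier results of these data known. Of the genes this rule names, 2 are not reported here. The symbols Otulin, Adgre1, Hbb-bs and Jchain were matched to older ones in the table. Lengths and 3′ UTRs came from GENCODE M21 on GRCm38 and promoter windows from RefSeq. Alternatives covered the filter, the scale, the variance trend, centring, the replicate block, a test against a log2FC of 1, each sample left out and gene length.

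Replicate numbers were checked for pairing through each sample's distance from its group mean, correlated over genes. The correlations were 0.435, 0.224 and 0.300 for the same number and between -0.281 and 0.0279 otherwise, so the numbers were taken as possible pairs. The main fit and the permutation tests did not use these pairs, and the replicate block alternative did. Some values (8393) lie under that of a gene without reads. Where both samples of a number did so in a gene (2671 cases), 2670 had identical values in both, which voom alone does not give. In these cases the values carry a shift per number, equal in both groups. Its form in other genes was not tested. A shift equal in both groups leaves log2FC as it is and enters the SD, SE and FDR. Such a shift can also raise the correlations above, so these alone are no proof of pairing. The labels name 3 mice, and p values measure the spread between these samples.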

Additional observations from a re-analysis of the deposited data

How the results depend on the processing

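Directions of the 5 subunit genes were the same under all 12 alternatives, and the calls of *Nfkb1*, *Nfkb2*, *Rel* and *Relb* were kept under each. *Rela* lost its call with no filter on low values (log2FC -0.18, FDR 0.0663) and without the variance trend (-0.18, FDR 0.0629), and its log2FC was -0.23 to -0.14 with each sample left out (FDR over all alternatives 0.0102 to 0.1003, limma). With the replicate block its log2FC was -0.18 (FDR 0.0102), and the block changed no call of a member and, of the other named genes, that of *Tuba4a* (FDR 0.0381). With treat against a log2FC of 1, 1 member was raised, as 914 genes were, and 968 were lowered; left-out samples gave 1 to 2 members raised past that size. With no filter, 3 genes of processing and degradation were raised and 2 targets lowered. With samples left out, 2 to 4 targets were lowered and 3 to 5 activators raised, 3 of them without CpG-stimulated replicate 3. Targets lowered were 2 without CpG-stimulated replicate 1 or 3 or unstimulated replicate 2 or 3. *Junb* and *Ccne1* were the lowered targets that lost their call in these fits, and *Map3k8* and *Fbxw7* lost theirs with no filter (FDR 0.0528 and 0.0505, limma). The number of raised targets, 40 in the main fit, was 36 with no filter and 37 to 40 with samples left out. It was 32 where all 6 samples had to pass the filter. *Il12b*, *Il6*, *Bcl2a1a*, *Ccl22*, *Ccl5* and *Cxcl10* were among the targets then not tested. The causes were not tested. Where the values of a gene carry a shift per replicate number, it also enters the log2FC of fits with a sample left out.

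Levels per kb moved with the length used, by its construction. With the longest transcript, unstimulated and stimulated levels were 7.51 and 9.22 log2 CPM per kb for *Nfkb1*, 6.52 and 7.56 for *Nfkb2*, 6.05 and 5.87 for *Rela* and 5.83 and 5.37 for *Relb*. With the longest protein-coding transcript, an alternative chosen after seeing the data, they were 7.52 and 9.23, 6.52 and 7.56, 6.05 and 5.87, and 6.40 and 5.94.

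For 53 other named genes, 612 of 632 values stayed on their side of the threshold; 17 (5 genes) lost a call, 3 (2 genes) gained one, and 0 turned. Alternatives for counts were not run, as the values are not counts. Depth limits the targets that are near the value of 3 reads without CpG, and quantile normalization limits any statement per cell.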
